A study of Rattus norvegicus and Mus musculus with 3 samples.

Results

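Genes of motile cilia and of the ciliated ependyma were followed in hippocampal RNA of 2 rat libraries and 1 mouse library. A gene was taken as a member where its symbol, ignoring case, was a numbered Cfap, Dnah, Dnai, Rsph or Tekt symbol or was Tmem212, Ccdc153, Ak7 or Foxj1. This rule used no measured value, but the members were chosen with earlier results of these data known. It took 59 of the 30438 entries in each rat table and 65 of the 34714 entries in the mouse table, with 50 symbols in both. Of the rat libraries, both of an age of 3 to 4 months and of genotype WT, 1 was labelled Sham and 1 was labelled 2VO. The term 2VO commonly stands for tying off the 2 common carotid arteries, which lowers cerebral blood flow and serves as a rat model of vascular dementia, and Sham for an operation that leaves them open. The mouse library was of genotype WT and an age of 6 months. WT here is the wild-type genotype of the 3xTg-AD model of Alzheimer's disease, and no transgenic 3xTg-AD mouse was analysed. Total RNA of the hippocampus was sequenced, with 1 library in each group, and the labels do not say whether several animals were pooled. The rats and the mouse named below therefore stand for libraries.

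The deposited values are a normalized expression signal whose unit is not stated. They summed to 325636 in Sham, 333941 in 2VO and 268889 in the mouse, and the sequencing depth behind them is unknown. With 1 library in each group there is no replicate error and no test was possible. Every difference below therefore describes these libraries and not the conditions.

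Motile cilia beat because dynein arms slide the doublet microtubules of the axoneme past each other, while radial spokes, nexin links and the central apparatus set the waveform. In the brain such cilia are carried mainly by ependymal cells, which line the ventricles and move cerebrospinal fluid, and by the epithelium of the choroid plexus. The transcription factor FOXJ1, together with RFX factors that bind X-box sequences in promoters, switches on the genes that build them, and many of the same genes are active in testis, where they build the sperm tail.

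The promoters of the members were read from RefSeq windows of the rat assembly GRCr8, each holding 250 bases before and 50 bases after a gene's start. Of the 59 rat members 46 matched an entry, 1 of them by a synonym (Ccdc153 is Drc12 in RefSeq), giving 85 windows. Cfap157, Cfap47-2, Cfap52, Cfap53, Cfap57-2, Cfap73, Dnah3, Dnah5-2, Dnah7-2, Foxj1, Rsph1, Rsph4a and Tekt5 had no entry. The windows below are shown because Tmem212 and Ak7 had the largest differences between the rats among members averaging 1 unit or more, and because the other 4 hold sequences like those that RFX factors bind. Each reads 5′ to 3′ on the strand of the gene. Capitals mark GTTGCC, an RFX core motif, on either strand, and pairs of GTTNC and GNAAC with 2 to 5 bases between them, a looser form of the X-box.

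Tmem212 (chr2:112741819-112742118, minus strand): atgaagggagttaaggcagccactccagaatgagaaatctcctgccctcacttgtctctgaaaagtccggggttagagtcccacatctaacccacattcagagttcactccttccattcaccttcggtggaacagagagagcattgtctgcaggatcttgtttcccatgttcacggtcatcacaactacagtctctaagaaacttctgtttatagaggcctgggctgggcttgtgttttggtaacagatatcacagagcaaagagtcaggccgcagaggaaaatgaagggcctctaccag
Ak7 (chr6:130376354-130376653, plus strand): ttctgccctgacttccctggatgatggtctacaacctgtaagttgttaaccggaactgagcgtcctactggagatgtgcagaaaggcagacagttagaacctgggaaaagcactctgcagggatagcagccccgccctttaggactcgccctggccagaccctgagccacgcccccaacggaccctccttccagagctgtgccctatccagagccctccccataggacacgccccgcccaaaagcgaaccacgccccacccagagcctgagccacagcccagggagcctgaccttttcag
Tekt2 (chr5:143907675-143907974, minus strand): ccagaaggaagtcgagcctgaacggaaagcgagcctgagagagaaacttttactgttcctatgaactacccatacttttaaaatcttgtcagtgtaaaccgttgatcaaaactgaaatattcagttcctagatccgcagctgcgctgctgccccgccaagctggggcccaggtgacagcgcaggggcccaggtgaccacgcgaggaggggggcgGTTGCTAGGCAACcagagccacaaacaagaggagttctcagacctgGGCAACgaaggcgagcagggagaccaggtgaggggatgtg
Tekt4 (chr10:14992034-14992333, plus strand): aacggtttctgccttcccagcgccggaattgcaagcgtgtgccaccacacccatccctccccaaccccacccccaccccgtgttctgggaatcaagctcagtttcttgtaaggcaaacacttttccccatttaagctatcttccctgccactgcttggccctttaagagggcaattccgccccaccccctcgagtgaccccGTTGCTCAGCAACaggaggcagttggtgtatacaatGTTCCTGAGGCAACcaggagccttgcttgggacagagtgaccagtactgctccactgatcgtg
Dnah6 (chr4:106842315-106842614, minus strand): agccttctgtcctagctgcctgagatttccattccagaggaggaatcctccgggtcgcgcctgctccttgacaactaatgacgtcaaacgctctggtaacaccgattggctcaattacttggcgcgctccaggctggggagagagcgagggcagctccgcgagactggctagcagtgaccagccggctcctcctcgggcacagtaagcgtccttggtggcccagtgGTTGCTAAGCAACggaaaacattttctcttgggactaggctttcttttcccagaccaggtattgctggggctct
Cfap44 (chr11:69789856-69790155, minus strand): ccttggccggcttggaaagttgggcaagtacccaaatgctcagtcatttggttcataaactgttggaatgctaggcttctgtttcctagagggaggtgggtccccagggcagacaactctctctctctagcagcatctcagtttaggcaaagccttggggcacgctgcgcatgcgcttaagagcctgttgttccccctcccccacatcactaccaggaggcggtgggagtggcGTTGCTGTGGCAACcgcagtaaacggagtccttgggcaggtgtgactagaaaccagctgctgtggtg

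The Tekt2 window holds GTTGCTAGGCAAC beginning 36 bases before the start, and the Dnah6 window holds GTTGCTAAGCAAC beginning 24 bases before it. In the Tekt4 window 2 such pairs lie 49 and 13 bases before the start, GTTGCTCAGCAAC and GTTCCTGAGGCAAC. The Cfap44 window holds GTTGCTGTGGCAAC beginning 17 bases before the start. The windows of Tmem212 and Ak7 hold neither the pair nor the core motif.

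The pair of GTTNC and GNAAC, which reads the same on both strands, was found in 13 of the 85 member windows (15.3%, exact 95% interval 8.40% to 24.7%) and in 2.78% of all 33469 windows. By gene it was in 11 of 46 members (23.9%) and in 2.99% of 27457 genes, the members being Cfap44, Cfap45, Cfap57, Cfap61, Dnah6, Dnah7, Dnah9, Dnai1, Dnai2, Tekt2 and Tekt4. This form was chosen after the windows had been read. The interval takes windows as independent, but windows of 1 gene overlap and can hold the same site, so it is too narrow. A stricter X-box of GTTNCC and GGNAAC with 2 bases between was in 0 of the 85 windows and in 0.472% of all windows. The core motif GTTGCC, searched on both strands and overlapping some of the pairs, was in 25 of 85 member windows (29.4%, exact 95% interval 20.0% to 40.3%) and in 12.2% of all windows. The GTTGCC interval is too narrow for the same reason. Counted by gene, GTTGCC was in 18 of 46 members (39.1%) and in 13.1% of all genes with a window. The forkhead motif TGTTTAC, searched on both strands, was in 4 of 85 member windows (4.71%), those of Cfap20, Cfap43 and Tekt3, and in 3.78% of all windows. The median GC content was 54.3% in member windows and 51.7% in all windows.

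The presence of a motif was set beside the rat values. Of the 10 members with the pair that averaged 0.1 units or more, 9 were higher in 2VO, with a median log2 ratio of 0.56 after adding 0.1 units. Of the 34 members whose windows lacked it, 31 were higher, with a median of 0.41. For GTTGCC 17 of 17 members with the motif were higher with a median of 0.40, and 23 of 27 without it with a median of 0.48. The median was thus higher with the pair than without it and lower with GTTGCC than without it.

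Most members were higher in the 2VO library than in the Sham library, and the ratios were modest. Of all 59 rat entries 52 were higher in 2VO and 7 lower, and their summed value was 141 units in Sham and 172 in 2VO. An average of 1 unit or more over the 2 rats was reached by 27 members, 29 had a mean of 0.1 to under 1 unit, and Cfap47-2, Cfap58 and Dnah7 lay below 0.1 units. Among the 27, 23 were higher in 2VO (85.2%), beside 58.7% of all 13550 genes of that level. Their median log2 ratio of 2VO to Sham was 0.27 with 1 unit added to each value, a step that shrinks the ratios of low genes, and that of all genes was 0.04. On that scale 2 members, Tmem212 and Ak7, were at least 1.5-fold higher in 2VO and 0 were at least 1.5-fold lower. Among all genes 1.51% were at least 1.5-fold higher and 0.967% at least 1.5-fold lower. Scaled to equal upper quartiles, 22 of the 27 members were above Sham beside 47.8% of all genes, and the 1.5-fold shares of all genes became 1.15% higher and 1.22% lower. Ak7 lay just past 1.5-fold and was below it under every scaling run.

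The 29 members with lower values were compared with 0.1 units added, so their log2 ratios are not on the same scale as those above. In 2VO 27 of them were higher (93.1%), beside 55.1% of 4710 genes of the same level, and the median was 0.65 beside 0.06. Of the 29, 17 were at least 1.5-fold higher and 0 at least 1.5-fold lower. Among all genes of that level 14.1% were at least 1.5-fold higher and 9.51% at least 1.5-fold lower, so ratios of this size are common among low values. Over all 56 members averaging 0.1 units or more, with 0.1 added, 50 were higher and 22 at least 1.5-fold higher, with 0 at least 1.5-fold lower. The same counts over all 18260 genes were 57.8% higher, 5.73% at least 1.5-fold higher and 3.72% at least 1.5-fold lower. The counts by role below use this last scale. In bulk tissue, more ependymal cells and more RNA in each cell cannot be told apart.

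**Figure D1:**
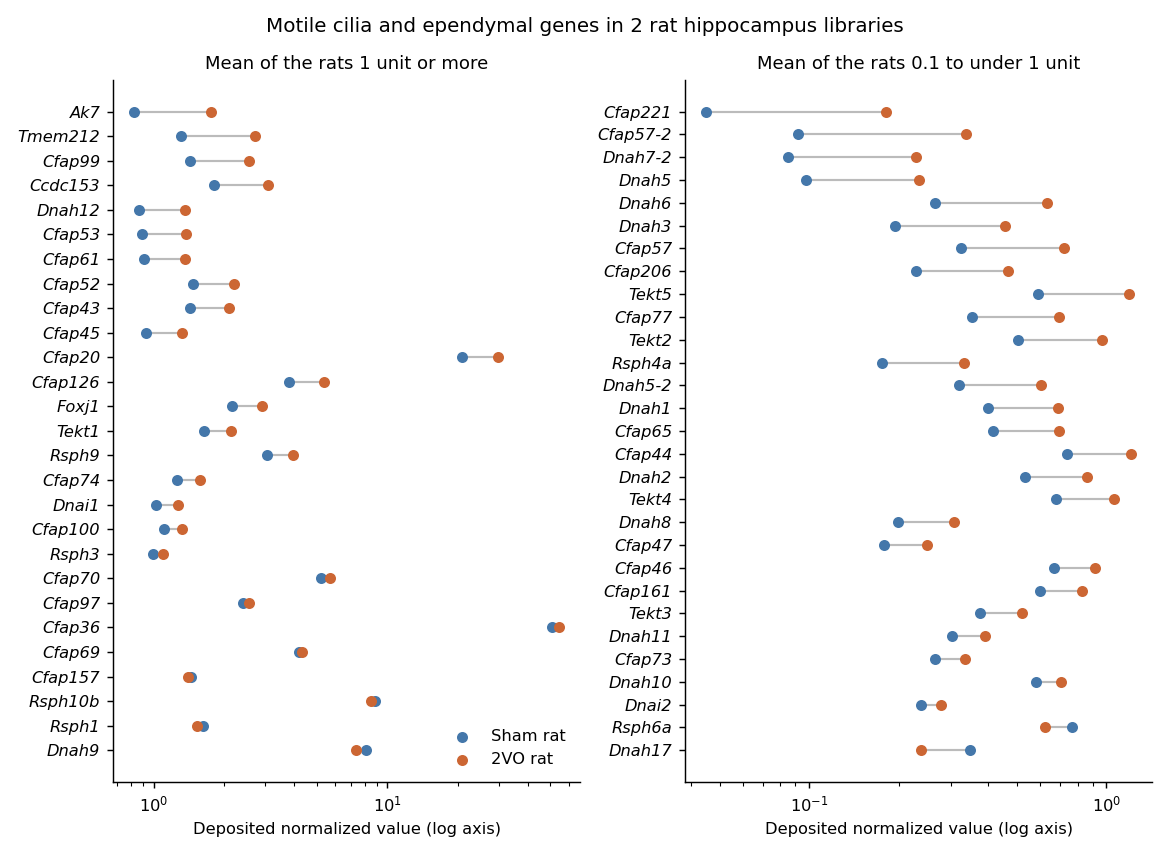
Deposited normalized values (log axes) of the 27 members averaging 1 unit or more (left) and the 29 with 0.1 to under 1 unit (right), with 1 point for the Sham rat and 1 for the 2VO rat, ordered by their ratio. The 2VO point lies to the right for 23 of 27 and 27 of 29 members, and to the left for Cfap157, Rsph10b, Rsph1, Dnah9, Rsph6a and Dnah17.

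The 4 genes taken by name rather than by family were all higher in 2VO. Tmem212, a membrane protein gene used as a marker of ependymal cells, was 1.31 units in Sham and 2.72 in 2VO (log2 ratio 0.69 with 1 unit added). Ak7, an adenylate kinase of motile cilia, was 0.826 in Sham and 1.76 in 2VO (0.59). Ccdc153, a component of the nexin-dynein regulatory complex, was 1.82 and 3.09 (0.54). Foxj1, the transcription factor that drives the motile cilia programme, stood closer in the 2 rats, at 2.16 in Sham and 2.92 in 2VO (0.31). As plain ratios these were 2.08, 2.13, 1.70 and 1.35, so the regulator had the smallest ratio of the 4. In the mouse the values were 0.994 for Tmem212, 0.602 for Ak7, 1.44 for Ccdc153 and 1.80 for Foxj1. These 4 genes were thus above 0 in every library.

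Dynein heavy chains are the motors of the axoneme. Of 14 listed entries 13 averaged 0.1 units or more, and 11 of these were higher in 2VO, 8 of them at least 1.5-fold. The inner arm chains, which shape the bend, were all higher: 7 of 7, 6 of them at least 1.5-fold, with a median log2 ratio of 0.65. Dnah12 was 0.870 in Sham and 1.36 in 2VO, and Dnah6 was 0.266 and 0.632. Dnah3 was 0.195 and 0.456, and Dnah7-2, 1 of 2 entries named for Dnah7, was 0.0847 and 0.228. Dnah1 was 0.401 and 0.687. Dnah2 and Dnah10, the chains of the 2-headed inner arm, stood at 0.533 and 0.579 in Sham, against 0.857 and 0.705 in 2VO, so Dnah10 had the smallest ratio of the inner arm chains, 1.22. Dnah7 itself was listed at 0 in Sham and was 0.0511 in 2VO, and no fold is given.

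Outer arm chains, which supply most of the force of the beat, were mixed. Dnah5, a chain of the outer arm in airway and ependymal cilia, was 0.0975 in Sham and 0.234 in 2VO, and its second entry Dnah5-2 was 0.320 and 0.604. Dnah9, another outer arm chain of these cilia, went the other way at 8.09 in Sham and 7.33 in 2VO (log2 ratio -0.13 with 1 unit added). Dnah11 was 0.303 and 0.390. The outer arm chains of the sperm tail also differed in direction: Dnah17 was 0.349 in Sham and 0.237 in 2VO and Dnah8 was 0.199 and 0.308. In sum the 6 outer arm entries were 9.36 units in Sham and 9.10 in 2VO, a total set by Dnah9, while the 8 inner arm entries summed to 2.93 and 4.98. The intermediate chains Dnai1 and Dnai2, which anchor the outer arm motors, stood at 1.02 and 0.237 in Sham, against 1.27 and 0.277 in 2VO. Both were therefore under 1.5-fold higher in 2VO.

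The tektins, filament proteins inside the doublet microtubules, were higher in 2VO for 5 of 5 members, with ratios from 1.31 to 2.03. Tekt5 was 0.587 in Sham and 1.19 in 2VO, and Tekt2 was 0.504 and 0.967. Tekt1 was 1.64 and 2.14, and Tekt4 was 0.677 and 1.06. Tekt3 was 0.376 and 0.519, and with 0.1 added Tekt1, Tekt3 and Tekt4 were each under 1.5-fold higher. Their sum was 3.79 units in Sham and 5.88 in 2VO. The 7 Cfap members that encode proteins on the inner face or inner junction of the doublets were also all higher, within a narrow range of ratios from 1.38 to 1.96. Cfap20, an inner junction protein, was 20.9 in Sham and 29.7 in 2VO (log2 ratio 0.49 with 1 unit added). Cfap126, known as Flattop, was 3.80 and 5.35 (0.40), and Cfap52 was 1.48 and 2.20 (0.37). Cfap53 was 0.890 and 1.37 (0.33), and Cfap45 was 0.930 and 1.32 (0.27). Cfap77 had the largest ratio of these 7, at 0.354 and 0.694, and Cfap161 the smallest, at 0.599 and 0.825. The sum of the 7 was 28.9 units in Sham and 41.4 in 2VO.

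Cfap members at the bases of radial spokes and at the tethers of the inner arms were higher in 2VO for 8 of 8, with 4 at least 1.5-fold higher. Cfap57 was 0.325 in Sham and 0.719 in 2VO, and the second entry Cfap57-2 was 0.0917 and 0.337, the highest log2 ratio of any member with 0.1 added (1.19). The tether proteins Cfap43 and Cfap44 stood at 1.43 and 0.735 in Sham, against 2.1 and 1.21 in 2VO. Cfap206, a protein of the spoke base, was 0.229 and 0.467. Cfap61, of the complex that links spokes to the nexin links, was 0.909 and 1.36. Cfap100 and Cfap73, which together modify the inner arms, had the smallest ratios, with Cfap100 at 1.11 and 1.33 and Cfap73 at 0.265 and 0.334.

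The central apparatus, a pair of single microtubules with their projections, is represented by 8 entries, of which 7 averaged 0.1 units or more. All 7 were higher in 2VO, 2 of them at least 1.5-fold. Cfap69 was 4.21 in Sham and 4.32 in 2VO, and its direction reversed under 3 of the other scalings. Cfap70 was 5.19 and 5.71. Cfap74 was 1.26 and 1.57, Cfap46 was 0.666 and 0.918, and Cfap65 was 0.414 and 0.693. Cfap221 had the highest plain ratio of any member, 4.01, from 0.0451 in Sham to 0.181 in 2VO, at values where ratios vary most. Cfap47 was 0.178 and 0.249, while its second entry Cfap47-2 was 0.0527 in Sham and listed at 0 in 2VO.

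The radial spoke genes were split in direction, with 3 of 6 higher and 3 lower in 2VO and a median log2 ratio of 0.04. Rsph9, of the spoke head, was 3.07 in Sham and 3.95 in 2VO, and Rsph4a, also of the head, was 0.176 and 0.332. Rsph1, another head protein, was 1.62 and 1.53, and Rsph10b was 8.82 and 8.55. Rsph6a, the relative of Rsph4a that is active in testis, was 0.765 and 0.622. Rsph3, of the spoke stalk, was 0.996 and 1.10. The sums were 15.5 units in Sham and 16.1 in 2VO. Whether the radial spoke genes differ from the other families was not tested.

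The remaining Cfap members lay mostly close together in both rats. Cfap36, which binds the small GTPase ARL3 and is not confined to motile cilia, had the highest value of all members, 51.0 in Sham and 54.5 in 2VO. Cfap97 was 2.41 and 2.57, and Cfap157 was 1.44 and 1.41. Cfap99 was the exception at 1.43 in Sham and 2.57 in 2VO (log2 ratio 0.55 with 1 unit added, plain ratio 1.79). Cfap58 was 0.0545 and 0.0659. Over all 26 Cfap entries averaging 0.1 units or more, 25 were higher in 2VO and 8 at least 1.5-fold higher.

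**Figure D2:**
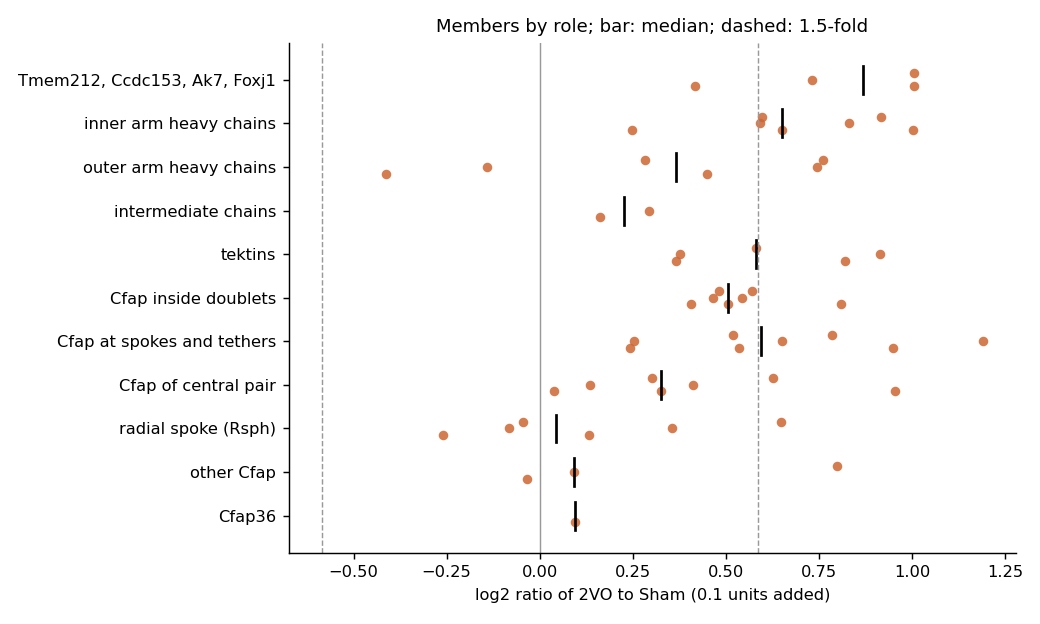
Log2 ratio of 2VO to Sham, with 0.1 units added, for the 56 members averaging 0.1 units or more (1 point each), grouped by the role of the protein, with a bar at each group's median and dashed lines at 1.5-fold. The medians run from 0.04 for the radial spoke genes to 0.87 for Tmem212, Ccdc153, Ak7 and Foxj1, and the lowest points are Dnah17, Rsph6a and Dnah9.

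The table gives 4 symbols a second entry ending in -2, and reads of near-identical entries may have been divided between them, so their values are uncertain. Summed over both entries, Cfap57 was 0.417 units in Sham and 1.06 in 2VO, and Dnah5 was 0.418 and 0.839. Dnah7 was 0.0847 and 0.279, and Cfap47 was 0.231 and 0.249. The sums were higher in 2VO for all 4, with ratios of 2.54, 2.01, 3.30 and 1.08.

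The difference was not the same at every level. With 0.1 added, the members with a mean of 0.3 to under 1 unit had a median log2 ratio of 0.65 (18 of 19 higher) and those of 1 to under 3 units a median of 0.46 (17 of 19 higher). The corresponding medians over all genes were both 0.06. Of the 6 members with 3 to under 10 units, Cfap126, Cfap69, Cfap70, Dnah9, Rsph10b and Rsph9, only 4 were higher and the median was 0.09, beside 0.05 for all genes of that level. The 2 members of at least 10 units, Cfap20 and Cfap36, were both higher with a median of 0.30. Members of the lowest levels, 0.1 to under 0.3 units, were higher in 9 of 10 cases with a median of 0.55.

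**Figure D3:**
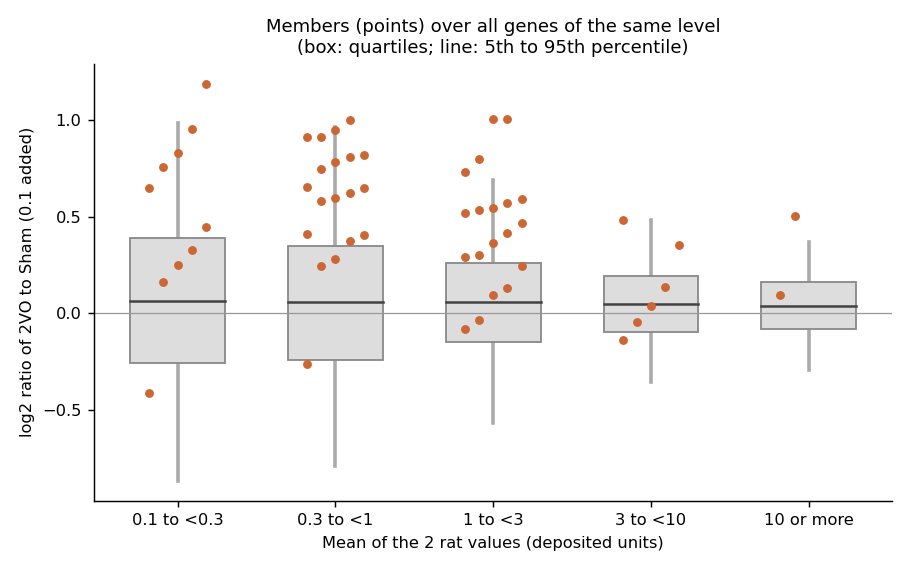
Log2 ratio of 2VO to Sham, with 0.1 units added, by mean rat value, with members as points over all genes of the same level (box, quartiles with the median as a line; thin line, 5th to 95th percentile). The members' medians were 0.55, 0.65, 0.46, 0.09 and 0.30 from the lowest to the highest level, beside medians of 0.04 to 0.06 for all genes.

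Other components of the motile axoneme, taken from 5 lists that hold no member, were higher in 2VO for 46 of 63 genes averaging 0.1 units or more, with a median log2 ratio of 0.26. Of them 11 were at least 1.5-fold higher and 2 at least 1.5-fold lower. Over all genes on this scale 57.8% were higher, 5.73% at least 1.5-fold higher and 3.72% at least 1.5-fold lower. Among genes of 0.1 to under 1 unit 14.1% were at least 1.5-fold higher. Proteins inside the doublets had the highest median of the 5 lists, 0.37, with 12 of 15 higher, and among them Mns1 was 0.884 in Sham and 1.62 in 2VO. Outer arm docking and light chain genes were higher for 7 of 8, with a median of 0.27. In the central pair list 7 of 12 were higher, with Spag6 at 0.979 and 2.26 and Hydin at 0.427 and 0.991, while Spag6l, a near copy of Spag6, was 0.268 and 0.134. The nexin link genes were higher for 9 of 13 with a median of 0.04, and Ccdc40, which with Ccdc39 sets the repeat of the axoneme, was 0.459 and 1.24. Ccdc39 itself was 7.26 and 7.28. Genes for the assembly of dyneins in the cytoplasm were higher for 11 of 15, with Dnaaf3 at 1.18 and 2.11, but Ccdc103 was lower at 0.948 and 0.336.

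Of 14 genes of the upstream programme that makes multiciliated cells, averaging 0.1 units or more, 8 were higher and 6 lower in 2VO, with a median of 0.07. Over all genes of that level 57.8% were higher, 5.73% at least 1.5-fold higher and 3.72% at least 1.5-fold lower. Of the 14 only Gmnc passed 1.5-fold, at 0.167 in Sham and 0.336 in 2VO. Rfx2 was 2.26 in Sham and 2.38 in 2VO, and Rfx3 was 12 and 11.6. Mcidas, Ccno, Cdc20b and Foxn4, which act while multiple cilia are being made, were listed at 0 in both rats. Genes of intraflagellar transport and the BBSome, which serve primary and motile cilia alike, were higher for 27 of 37 with a median of 0.10, and only Ift88 among them passed 1.5-fold, at 2.78 and 4.65. Other genes marking ependymal cells were higher for 17 of 24 with a median of 0.17. Of the 24, 5 were at least 1.5-fold higher. Meig1 was the 1 gene at least 1.5-fold lower, at 0.267 in Sham and 0.0484 in 2VO. Dynlrb2, a dynein light chain, was 2.08 and 3.29, while Rarres2 was 16.7 and 15.6 and Tppp3 was 11.7 and 13.6. Sntn, a marker of cilia tips, was listed at 0 in both rats and was 0.281 in the mouse.

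Markers of other cells were counted in the same way. Of all genes averaging 0.1 units or more 57.8% were higher in 2VO, with a median log2 ratio of 0.05. Of 15 oligodendrocyte genes all were higher in 2VO with a median of 0.34, their summed value being 4023 units in Sham and 5045 in 2VO. Choroid plexus genes, from the ciliated epithelium of the ventricles, summed to 40.0 and 60.6 units, with 6 of 9 higher and a median of 0.48. Most of that sum was Enpp2, which oligodendrocytes also express, at 32 in Sham and 46.7 in 2VO. Ttr was 0.434 in Sham and 4.75 in 2VO, Clic6 was 0.0773 and 0.426, and Folr1 was 0.798 and 1.54. Aqp1 was lower in 2VO at 0.253 and 0.119, while Kl was 0.0496 and 0.0369 and Otx2 was 0.00446 and 0.0101, near 0. Neuron markers were higher for 6 of 12 and astrocyte markers for 5 of 10, with medians of 0.02 and 0.00042. In these lists only Wfs1, a neuron marker, and Gfap, an astrocyte marker, passed 1.5-fold, both lower in 2VO. Wfs1 was 169 in Sham and 111 in 2VO, and Gfap was 778 and 360. Microglia markers were higher for 2 of 10 with a median of -0.31. Markers of the neighbouring cortex, septum and striatum were higher for 6 of 11, and those of meninges and vessels for 6 of 10. Lamp5 and Fezf2 were the 2 neighbouring-region genes past 1.5-fold, both higher. Lamp5 was 12.2 in Sham and 27.3 in 2VO, and Fezf2 was 6.62 and 12.7. Of 12 sperm genes that brain lacks or holds at low levels, 8 were listed at 0 in Sham and 5 in 2VO, and Odf2, which is also active outside the testis, was 13.6 and 14.2. The part of dissection, of ventricular wall or of choroid plexus in the members' difference was not tested.

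**Figure D4:**
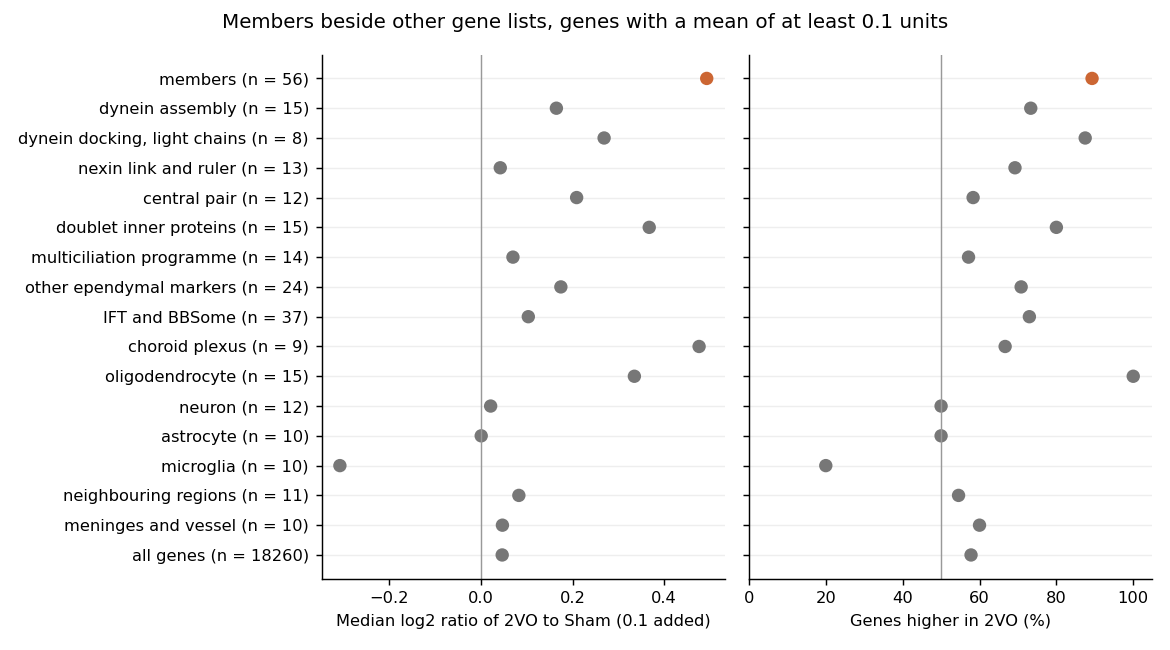
Median log2 ratio of 2VO to Sham with 0.1 units added (left) and percent of genes higher in 2VO (right) for the members, 15 other gene lists and all genes, each over genes averaging 0.1 units or more. The members stand at 0.49 and 89.3%, choroid plexus genes at 0.48, oligodendrocyte genes at 0.34, microglia genes at -0.31 and all genes at 0.05 and 57.8%.

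In the wild-type mouse 22 of 65 members reached 1 unit, and Cfap97d1 and Tekt3 were listed at 0. The 5 highest deposited values were 37.1 for Cfap36, 19.1 for Cfap20, 16.0 for Cfap298, 12.9 for Cfap410 and 9.04 for Rsph9. Cfap298 and Cfap410, both with functions in dynein assembly or cilia formation, are listed in the rats under older names that the rule does not take. There Cfap298 was 24.6 in Sham and 24.8 in 2VO, and Cfap410 was 12.4 and 11.4. Among the symbols that the rule takes, the 5 highest in both rats were Cfap36, Cfap20, Rsph10b, Dnah9 and Cfap70. By their older names Cfap298 and Cfap410 both lay above Rsph10b, so the top of the order differs between the species partly through naming. Whether the values are scaled by transcript length is not stated, so this order is not an order of molar abundance. Rsph3a and Rsph3b, at 8.91 and 7.83 in the mouse, are near-identical copies whose reads may have been divided, and the same holds for Dnah7a, Dnah7b and Dnah7c.

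Across the 50 members listed in both species the order of the values was shared in part. Spearman's rho was 0.646 and Pearson's r of the log2 values with 0.1 added 0.738 between the mouse and Sham, and 0.664 and 0.745 between the mouse and 2VO. The 2 rats stood at 0.967 and 0.979. These coefficients run across genes, which are no independent replicates, and the tables share no normalization. Members were therefore also placed by percentile within each library, among only the genes whose symbols are listed in both species. Cfap70 stood 25.8 points lower in the mouse than in the mean of the rats, at 0.430 units beside 5.19 and 5.71, and Dnah9 stood 22.4 points lower at 1.66 beside 8.09 and 7.33. Tekt3, Cfap126 and Cfap99 were lower by 19.9, 16.1 and 15 points. Higher in the mouse were Rsph9 by 20.3 points, Cfap97 by 19.2, Tekt5 by 13.8, Cfap74 by 13.3 and Cfap100 by 11.8. Tekt5 was 3.02 units in the mouse, above both rats, and Rsph9 was 9.04 beside 3.07 and 3.95. Species, age and annotation differ together between these tables and cannot be told apart.

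**Figure D5:**
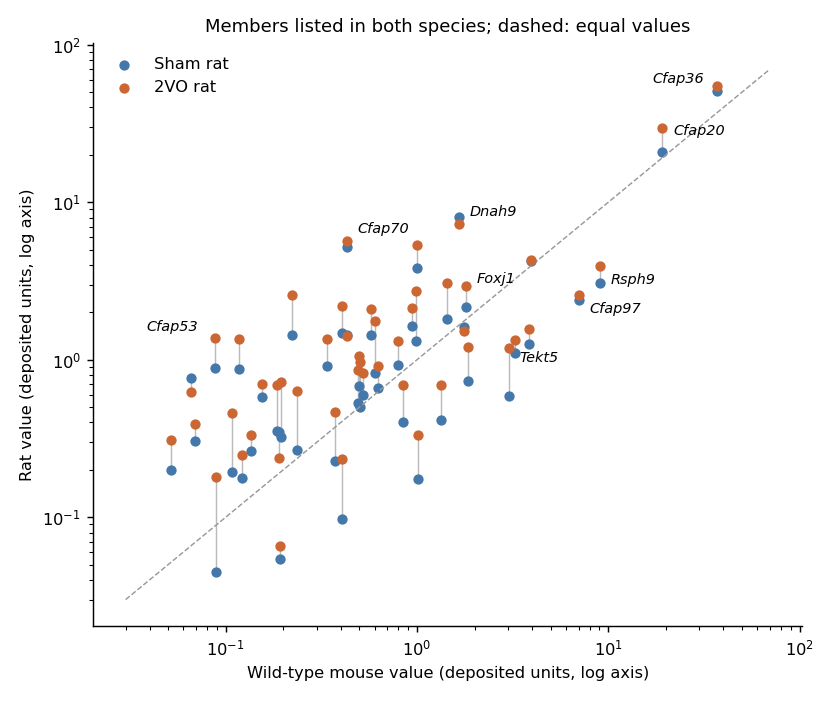
Rat values against wild-type mouse values (log axes, deposited units) for members listed in both species, with 1 point for each rat joined by a line and a dashed line at equal values, and Tekt3, at 0 in the mouse, left out. Cfap70 and Dnah9 lie farthest above the line among labelled members with rat values over 5 units, and Rsph9, Cfap97 and Tekt5 lie below it.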

How the data were processed

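Per the labels, hippocampal total RNA came from a TRIzol extraction and 1 µg entered each TruSeq RNA Library Prep Kit v2 library. The deposited tables hold a normalized expression signal for each gene, 1 column for each library, per the file headers. Not given in the sources used here are its unit, quantifier, annotation and filters. Per the submitters' processing notes, the tools were DESeq2, HISAT2 2.1.0 and fastp 0.21.0 and the builds mRatBN7.2 and GRCm39, with no roles given. The signal of the mouse table had a Spearman rho of -0.067 with the longest transcript over 11947 coding genes of at least 1 unit.

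Groups came from the sample titles, 1 library each, so no test was run and depth is unknown. Log2 ratios of 2VO to Sham were formed from the deposited signal without rescaling, with 1 unit added over genes averaging 1 unit or more, or 0.1 units added over those averaging 0.1 units or more. A fold of 1.5 was counted as a difference. The rule for named genes took all members averaging 1 unit or more, those past 1.5-fold, the 5 lowest and highest ratios among low members, the 5 highest values in each library and the 5 largest percentile differences between mouse and rats each way; other members and list genes are named as examples. The members, the 16 lists and the roles, assigned from general knowledge, were chosen with earlier results of these data known. Alternatives were 0.25 or 4 units added, no filter or means of at least 0.2 or 5 units, upper-quartile, median-of-ratios and top-50-excluded sum scaling, and a lowess trend (span 0.3). Summing -2 entries, adding genes under older names and the looser X-box were added after the data were seen. Promoter sequences are RefSeq's on GRCr8, with exact Clopper-Pearson intervals at 95% that take overlapping windows as independent. The fold calculation was tested on data simulated from genes of at least 1 unit in Sham. No units were added there, so added units and lower values were not covered. The software was Python 3.11.15 with matplotlib 3.10.9, statsmodels 0.14.6, scipy 1.17.1, numpy 2.4.6 and pandas 2.3.3.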

Additional observations from a re-analysis of the deposited data

How the results depend on the processing

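Among members averaging 1 unit or more, the median log2 ratio of 0.27 was 0.12 with 4 units added and 0.094 for the 5 members averaging 5 units or more; in the other settings run it was 0.20 to 0.34. The count of members at least 1.5-fold higher, 2 as reported, was 4 with 0.25 units added, 0 with 4 units added and 0 for averages of 5 units or more. It was 1 after scaling to equal upper quartiles, by the median of ratios or to the sum that leaves out the top 50 genes, and 1 after subtracting the lowess trend; Ak7 is the call lost. Members higher and lower, 23 and 4 as reported, were 52 and 7 with no filter, 47 higher for averages of 0.2 units or more, and 3 and 2 for averages of 5 units or more. Among the low members, 7 in place of 17 were at least 1.5-fold higher with 0.25 units added, and 5 in place of 2 were lower once genes under older names were added. For averages of 1 unit or more rho was 0.314 between the mouse and Sham and 0.237 between the mouse and 2VO. The looser X-box was in 15.3% of member windows in place of 0. Of 221 values of single members under other settings, 25 moved by over 0.1 log2 units, and Cfap69 was the member that changed sign. Scaling moved the median of all genes from 0.04 to between -0.010 and 0.0058. No paired analysis was possible because each group holds 1 library, and no library could be left out for the same reason. Depth is unknown, so counting error limits the low members by an amount that cannot be given.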

Other observations

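Of the genes that RefSeq now names within the same families, 16 are listed in the rat tables under an older name and so fall outside the rule. Among the 15 averaging 0.1 units or more, 11 were higher in 2VO and 4 lower, 4 were at least 1.5-fold higher, and the median log2 ratio was 0.37 with 0.1 units added. Over all genes averaging 0.1 units or more 57.8% were higher and 5.73% at least 1.5-fold higher. RGD1308544, now Cfap90, was 3.48 units in Sham and 6.43 in 2VO, and Fam183b, now Cfap144, was 0.861 and 1.60. The dynein intermediate chain genes Wdr63 (Dnai3) and Wdr78 (Dnai4) stood at 0.663 and 2.71 in Sham but 1.13 and 4.03 in 2VO, and Casc1 (Dnai7) was 4.13 and 4.63. RGD1306954 (Cfap298) was 24.6 and 24.8. RGD1309594 (Cfap410) was 12.4 and 11.4, and RGD1565533 (Cfap97d1) was 0.416 and 0.251. These genes were looked up after the values of the members were known.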
